A study of Drosophila melanogaster with 3 samples.

Results

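The peaks described here lie between genes, at a short distance from one, in a genome-wide map of the Drosophila protein CG11504 (chromatin immunoprecipitation and sequencing, ChIP-seq). They were selected from the list of 10650 peaks kept by the authors by the irreproducible discovery rate (IDR), which gauges how well the ranking of peaks repeats from replicate to replicate. The 500 peaks with the highest signal were set aside, which left 10150. Of these, 1367 (13.5%) had their summit outside every annotated gene and more than 500 bp but at most 5000 bp from the nearest annotated transcription start site, and are called near-gene intergenic peaks. Both the signal and the summit position are measured values, so the strength and the class of these peaks are a description of the choice and not a finding. A further 47 summits that met the same position rule were among the 500 strongest.

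The samples form 1 group of 3 biological replicates: whole embryos, males and females together, aged 0 to 18 h, from a transgenic line stably expressing CG11504 with a C-terminal green fluorescent protein (GFP) tag. The sonicated fragments were 200 to 800 bp long and the precipitating antibody was raised against GFP, so all tissues of the embryo and 18 h of development are averaged, and all samples come from 1 line. Untagged embryos, or embryos with a different GFP fusion, were not analysed here, so peaks common to many GFP experiments cannot be told apart from those of CG11504. The replicate lists hold 30000 peaks each and all share 1 control, and the number of sequenced reads is unknown.

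CG11504 belongs to the MADF-domain family, named for a domain related to the DNA-binding domain of Myb. Intergenic DNA near fly genes holds enhancers, to which transcription factors bind and which raise or lower transcription of a gene at a distance, and insulators, which limit the reach of enhancers and are bound by proteins such as CTCF and Su(Hw). Core promoter words such as the TATA box, by contrast, are known for their place just upstream of a start site. These categories are background, since no expression, chromatin or contact data were part of the files.

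The summit sequences of the strongest near-gene intergenic peaks show what such sites look like. The 7 strongest whose sequence can be shown are given as the summit base with 50 bases on either side, forward strand, dm6 assembly, sequence from the NCBI reference genome. Each is named by the gene with the nearest start site. Capitals mark the TATA box word TATAAA, the homeodomain word TAATTA, the core promoter word GTATTT (Ohler 6) and the core of the CTCF motif, AGNTGGCGC, on either strand.
stv (chr3L:13476934-13477034): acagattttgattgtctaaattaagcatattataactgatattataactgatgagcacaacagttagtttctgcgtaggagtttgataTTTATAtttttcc
jp (chr2L:9567452-9567552): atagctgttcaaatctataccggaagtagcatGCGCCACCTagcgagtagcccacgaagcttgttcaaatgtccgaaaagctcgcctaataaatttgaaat
rgn (chr3L:21381862-21381962): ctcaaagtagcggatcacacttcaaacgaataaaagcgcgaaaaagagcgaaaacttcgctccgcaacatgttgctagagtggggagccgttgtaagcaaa
sp3 (chr3R:21520297-21520397): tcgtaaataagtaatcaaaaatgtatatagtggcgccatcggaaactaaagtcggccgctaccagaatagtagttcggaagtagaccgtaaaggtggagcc
Msr-110 (chr3L:5577877-5577977): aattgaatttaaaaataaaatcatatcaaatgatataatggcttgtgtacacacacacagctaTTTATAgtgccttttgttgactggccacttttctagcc
PGRP-SA (chrX:11560438-11560538): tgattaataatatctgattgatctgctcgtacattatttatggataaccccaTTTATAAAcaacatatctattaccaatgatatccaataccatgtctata
aop (chr2L:2180217-2180317): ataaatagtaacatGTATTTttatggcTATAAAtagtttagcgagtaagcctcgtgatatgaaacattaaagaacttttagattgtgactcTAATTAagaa
The windows at stv, Msr-110, PGRP-SA and aop were rich in A and T, with 26.7% to 31.7% G or C, and each held 1 or 2 TATA box words. Those at jp, rgn and sp3 had 43.6% to 46.5% G or C and no TATA box word, and the one at jp held the CTCF core.

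A second set of sequences carries the CTCF core, which was picked out after the windows above had been read. They are the 6 strongest further peaks with that core within 50 bp of the summit whose sequence can be shown, printed and marked in the same way.
lncRNA:CR45303 (chr2L:14502731-14502831): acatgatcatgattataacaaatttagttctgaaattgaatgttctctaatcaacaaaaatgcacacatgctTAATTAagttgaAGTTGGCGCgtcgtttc
Sid (chr3R:28672337-28672437): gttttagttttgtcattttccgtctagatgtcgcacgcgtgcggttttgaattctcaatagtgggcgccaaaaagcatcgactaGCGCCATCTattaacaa
lncRNA:CR45919 (chr2L:17558522-17558622): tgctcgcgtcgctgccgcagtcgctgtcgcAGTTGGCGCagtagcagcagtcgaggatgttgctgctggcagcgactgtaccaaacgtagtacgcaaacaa
Chsy (chrX:15594621-15594721): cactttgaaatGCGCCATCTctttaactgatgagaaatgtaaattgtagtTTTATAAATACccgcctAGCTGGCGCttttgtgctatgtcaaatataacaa
RabGGTa (chr3R:5127005-5127105): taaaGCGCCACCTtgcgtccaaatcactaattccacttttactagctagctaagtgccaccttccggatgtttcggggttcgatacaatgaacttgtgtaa
sbr (chrX:10832516-10832616): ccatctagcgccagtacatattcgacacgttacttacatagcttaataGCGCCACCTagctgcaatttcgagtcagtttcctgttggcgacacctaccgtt
The 2 cores at Chsy lay on opposite strands, on either side of overlapping TATA box and Ohler 6 words. These 6 windows ranged from 31.7% to 59.4% G or C.

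The strongest near-gene intergenic peaks lay by genes of many kinds. The first was 557 bp upstream of stv, which encodes the co-chaperone Starvin, in the gap it shares with CG10089 (chromosome 3L, 13476721 to 13477253). It had rank 512 in the IDR list and ranks 548, 457 and 589 in replicates 1, 2 and 3. The next, 752 bp upstream of jp, the junctophilin gene, had ranks 580, 576 and 432 in the replicates. Both peaks kept ranks close to their IDR rank in every replicate. The peak 928 bp upstream of ths, a ligand of the FGF receptor Heartless, was at ranks 561, 915 and 647, and the peak 1513 bp upstream of aop, an Ets-family repressor, was at 908, 695 and 520. Others were near PGRP-SA, which encodes a sensor of bacterial peptidoglycan, E(spl)malpha-BFM, a Bearded-family target of Notch, stck, an adaptor of integrin adhesions, and ed, a cell adhesion molecule, whose summit lay in an annotated transposable element. The peak at Chsy, with IDR rank 707, lay in the gap between Chsy and sog, the gene of a BMP antagonist. Its summit is not the Chsy summit printed above with 2 CTCF cores, which lay 267 bp away and had IDR rank 2568.

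**Figure D1:**
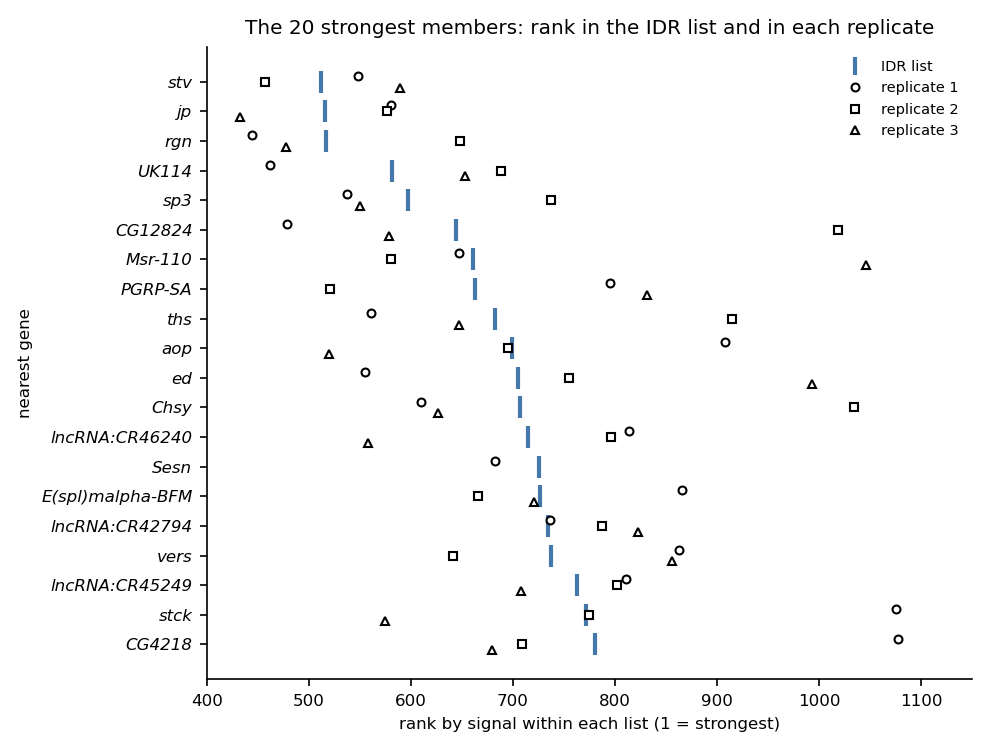
Rank of each of the 20 strongest near-gene intergenic peaks in the IDR list (bars) and in replicates 1 to 3 (points), where rank 1 is the strongest peak of a list, with the nearest gene on the vertical axis. Ranks in the replicates lie between 432 and 1077, and the peak at Sesn has no summit within 100 bp in replicates 2 and 3.

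Of the 20 strongest, 19 had a summit within 100 bp in all 3 replicates. The exception lay 596 bp upstream of Sesn, the sestrin gene, had rank 682 in replicate 1, and shared its region with another summit 258 bp away. Of the 20, 15 lay upstream of the nearest start site and 5 downstream.

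The limits of the choice fell within a continuous range of values. The strongest selected peaks, at stv and jp, had signals of 3844 and 3829, and the position-matched peaks just above the limit had 3933 at rho-6 and 4034 at lncRNA:CR45581. The weakest, at CG43897 and Tollo, had 236.1 and 235.9. Just inside the 500 bp limit were summits 502 bp from CG43066 and mtSSB, and just outside it summits 500 bp from fne and 499 bp from Mmp2. At the 5000 bp limit, summits 4998 bp from lncRNA:CR44799 and 4994 bp from skl were inside, and 5002 bp from lncRNA:CR45537 and 5006 bp from Tollo outside.

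Near-gene intergenic peaks were of middling strength. Their median signal, on a scale the sources used here do not state, was 506, against 428 for intergenic peaks beyond 5000 bp, 510 for intron peaks and 610 for promoter peaks (within 500 bp of a start site). Median peak width was 349 bp, against 321, 355 and 435 bp in the same order of classes. These values are close to the rule and are given as a description only.

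The peaks repeated between replicates about as often as other peaks of the list. Among the 10650 strongest peaks of a replicate, a summit lay within 100 bp for 86.4%, 88.0% and 83.0% of them in replicates 1, 2 and 3 (85.8% ± 2.54, SD, n = 3). A summit was present in all 3 replicates for 956 (69.9%, 95% exact binomial interval 67.4 to 72.4), against 70.9% of the 10150 peaks after the 500 strongest. By class the share was 66.1% for intergenic peaks beyond 5000 bp, 71.8% for intron peaks and 71.9% for promoter peaks. Only 21 near-gene intergenic peaks had no match in any replicate, 129 had 1 match and 261 had 2. With this cut at 10650 peaks the share followed strength: 437 of the strongest 455 were found in all 3 replicates, 393 of the middle 455 and 126 of the weakest 457. The weakest group had a median IDR rank of 9017, close to the cut. With all 30000 peaks of each replicate, 92.0% of the near-gene intergenic peaks were found in all 3. The order by strength is thus bound up with the cut, and it was not counted without it. The IDR list was derived from these replicates, so the shares describe the list and are no separate test. Exact intervals cover counting error only.

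Summits were denser near genes than farther away, and within the 500 to 5000 bp of the rule they were densest in the first 250 bp. Sequence that meets the position rule, counted base by base over the 6 chromosome arms, comes to 16.4 Mb and held 83.5 near-gene intergenic peaks per Mb (81.9 ± 2.35, SD, n = 3 replicates). Intergenic sequence beyond 5000 bp held 37.3 per Mb (35.5 ± 1.67), and the difference within replicates was 46.3 ± 0.688 per Mb (exact two-sided sign-flip permutation test over 3 replicates, p = 0.25, the smallest that 3 replicates can give, so that no comparison here can pass 0.05). Every replicate had the denser peaks near genes, and the difference was far larger than the spread between replicates. Introns held 85.1 per Mb, and the difference to them, -0.947 ± 1.87 per Mb, was within that spread (exact p = 0.75). Part of the sequence counted is repetitive, where reads are hard to place: annotated transposable elements make up 6.69% of the sequence that meets the rule but hold 3 of the peaks (0.219%). Their share of the sequence beyond 5000 bp is not given here, and its bearing on the lower density there was not tested.

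**Figure D2:**
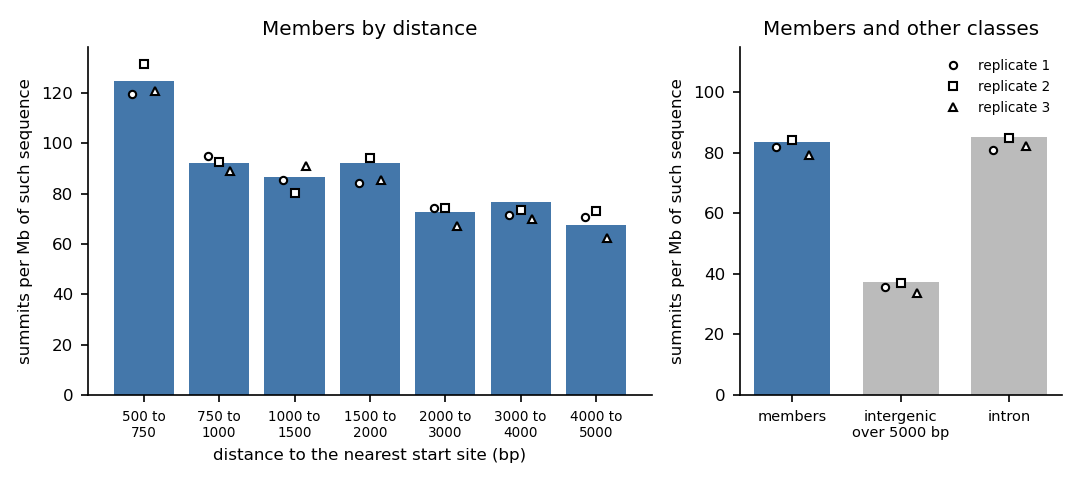
Summits per Mb of sequence of the same kind, for near-gene intergenic peaks by distance to the nearest start site (left) and against intergenic peaks beyond 5000 bp and intron peaks (right); bars show the IDR list and points the 3 replicates. Density is 125 per Mb at 500 to 750 bp and 67.4 per Mb at 4000 to 5000 bp.

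By distance, the density was 125 per Mb at 500 to 750 bp (124 ± 6.73 in the replicates), 92.0 at 750 to 1000 bp, 86.5 at 1000 to 1500 bp, 92.3 at 1500 to 2000 bp, 72.7 at 2000 to 3000 bp, 76.8 at 3000 to 4000 bp and 67.4 at 4000 to 5000 bp (68.8 ± 5.67). The median distance was 1907 bp. The ratio of the density at 500 to 1000 bp to that at 2000 to 5000 bp was 1.5. The first 250 bp beyond the promoter limit therefore stood apart, and the decline after 2000 bp was shallow. Intergenic sequence within 500 bp of a start site held 373 summits per Mb.

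On the arms, the density was 85.3 per Mb on 2L (307 peaks), 65.2 on 2R (187), 110 on 3L (385; 107 ± 5.01 in the replicates), 74.3 on 3R (289) and 82.0 on X (196). Chromosome 4 had 3 peaks, or 25.1 per Mb. The 3L value was the highest and the 2R value the lowest of the 5 large arms in each of the 3 replicates.

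Upstream and divergent positions held slightly more peaks than their share of bases with the limits of the rule. Of the 1367 peaks, 916 (67.0%, 64.4 to 69.5) lay upstream of the nearest start site (67.9% ± 0.366 in the replicates), against 64.1% of the bases that meet the rule. Upstream peaks were closer to the start site, at a median of 1717 bp, than downstream peaks, at 2295 bp. The rule leaves out summits inside genes, so a downstream summit has to lie beyond the far end of the gene. The distances of eligible bases on either side are not given here, and the medians are description only. Gaps between divergently transcribed genes held 94.7 peaks per Mb, gaps between genes in tandem 81.1 and gaps between convergent genes 76.1. The upstream share moved with the distance limits, to 63.5% with a lower limit of 1000 bp and 70.4% with an upper limit of 3000 bp. The upstream share of bases within those limits is not given here. Whether upstream positions were favoured there was therefore not tested. Density fell with distance from the start site, and the bases were not weighted by distance. A preference for upstream or divergent positions apart from distance was thus not tested either.

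Many of these peaks had another IDR summit nearby. It lay within 1000 bp of 435 of them (31.8%) and within 2000 bp of 741 (54.2%). The same counts were not made for other classes of peaks, so closeness is not shown to be particular to these. The peaks fell into 908 of the 6388 intergenic gaps with such sequence, and 293 gaps with at least 2 peaks held 752 of them, with up to 8 in 1 gap. The gene with the most was Gr93a, a gustatory receptor gene on 3R, which was nearest to 8 peaks (6, 8 and 6 in replicates 1, 2 and 3) with IDR ranks from 1962 to 9161. The next genes, with 5 peaks each, were CG13898, CG7484, whose other neighbour is the CREB coactivator gene Crtc, lncRNA:CR45246, lncRNA:CR45937 and lncRNA:CR45737. The last of these shares its gap with sty, which encodes the receptor tyrosine kinase antagonist Sprouty. All 5 at CG13898 repeated in the 3 replicates.

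A total of 1007 genes were nearest to at least 1 of the peaks, of 7658 that could be. Among protein-coding genes it was 676 of 5929, or 11.4% (11.3% ± 0.204 in the replicates). Genes of non-coding RNAs were reached more often, 298 of 1449 (20.6%; 19.9% ± 0.521), and transfer RNA genes at 20 of 86 (23.3%; 21.3% ± 1.34). Per base the classes were closer. By gene type, 65.0% of the peaks had a protein-coding nearest gene, against 67.3% of the bases that meet the rule, 31.6% a non-coding RNA gene, against 28.3% of the bases, and 2.34% a transfer RNA gene, against 1.45%.

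Genes with a near-gene intergenic peak also had a promoter peak more often. An IDR summit lay within 500 bp of a start site for 245 of the 676 protein-coding genes with such a peak (36.2%) and for 969 of the 5253 without one (18.4%). In the replicates the shares were 36.6% ± 3.13 and 19.5% ± 0.628, a difference of 17.0 ± 2.77 percentage points (exact sign-flip permutation p = 0.25, the smallest possible, n = 3), higher in 3 of 3 replicates. The difference was present in each of 4 equal groups of genes formed by the amount of eligible sequence they own. It was 30.2% against 11.9% in the group with the most, and 75% against 21.6% in the group with the least, where only 8 genes had a peak. The nearest gene had a promoter peak for 39.1% of peaks in divergent gaps, 33.7% in tandem gaps and 21.2% in convergent gaps.

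With each peak given to the nearest start site, the gene lists of signalling and of axon guidance and adhesion had the largest shares. The lists were chosen with earlier results of these data known, so their order and their distance from the background are description only. Per Mb of eligible sequence the signalling list had 240 peaks and the axon guidance and adhesion list 173, against 80.7 for all protein-coding genes. Of 26 eligible signalling genes, 12 (46.2%) were nearest to a peak, 11, 12 and 12 of them in replicates 1, 2 and 3, beside 11.4% of all protein-coding genes. The FGF ligand genes ths (3 peaks) and pyr (1), the repressor gene aop (2) and the Wnt receptor gene fz (1) had the strongest. Of 22 axon guidance and adhesion genes, 9 (40.9%; 8, 9 and 8 in the replicates) had one. They included Fas2 and Fas3, which encode immunoglobulin-type adhesion molecules, robo2, a receptor of Slit, and unc-5, a Netrin receptor. The Fas2 summit, 868 bp upstream, had ranks 1205, 2661 and 588, so its strength varied more between replicates than that of robo2, with 1492, 1418 and 1275.

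Of 18 neural genes, 5 (27.8%) had a peak, led by the SOX gene D, the POU genes pdm2 and nub and the zinc finger gene nerfin-1. Ecdysone response genes had 2 of 10, the nuclear receptor genes Hr38 and Eip78C, with 2 peaks each. Muscle structure genes had 3 of 17, the troponin gene TpnC47D and the actin genes Act57B and Act87E. Dorsal-ventral and mesoderm genes had 4 of 24, namely the T-box genes Doc2 and H15, the LIM-homeobox gene tup and Him. Per Mb of eligible sequence, the neural list had 114 peaks, the ecdysone list 183 and the muscle list 96.4. The dorsal-ventral and mesoderm list had 64.0, below the 80.7 of all protein-coding genes. Small lists of this kind move by several percentage points with 1 gene.

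By share of genes, lists at or near the background were the NK and other homeobox genes with 3 of 25 (Optix, tup and B-H2), the segmentation genes with 3 of 27 (bcd, wg and hh), the cuticle protein genes with 9 of 100 (Cpr65Eb, Cpr51A, Cpr67Fb and Cpr76Ba the strongest) and the odorant, gustatory and ionotropic receptors with 14 of 106. Per Mb of eligible sequence, the segmentation list was well below it, with 24.4 peaks against 80.7 for all protein-coding genes. The homeobox list had 70.1, the cuticle list 71.2 and the receptor list 84.1. Receptor genes with one included Gr93a, Gr93d, Gr89a and Ir94a. The list of trachea, gut and GATA genes had 1 of 13, the GATA factor gene srp, with 2 peaks. Neuropeptide receptors had 1 of 29, the bursicon receptor gene rk. None of 8 eligible Hox genes and none of 8 Polycomb and Trithorax genes had a peak in the IDR list, which allows a share of up to 37.5% for each (3 counts of 8, counting error only). In the replicates, 1 Hox gene had one in replicate 1, and 1 Polycomb or Trithorax gene in replicate 1 and in replicate 3. A peak is given to the nearest start site, and no file shows which gene it acts on. The order of the lists depended on that choice. With either gene beside the gap counted, 1155 of 7477 protein-coding genes had a peak (15.4%). Signalling genes then had 18 of 32 (56.2%), the trachea, gut and GATA list 7 of 15 (46.7%), dorsal-ventral and mesoderm genes 10 of 27 (37.0%), the segmentation and the NK and other homeobox lists 10 of 28 each (35.7%), axon guidance and adhesion genes 11 of 31 (35.5%) and neural genes 7 of 20 (35.0%).

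**Figure D3:**
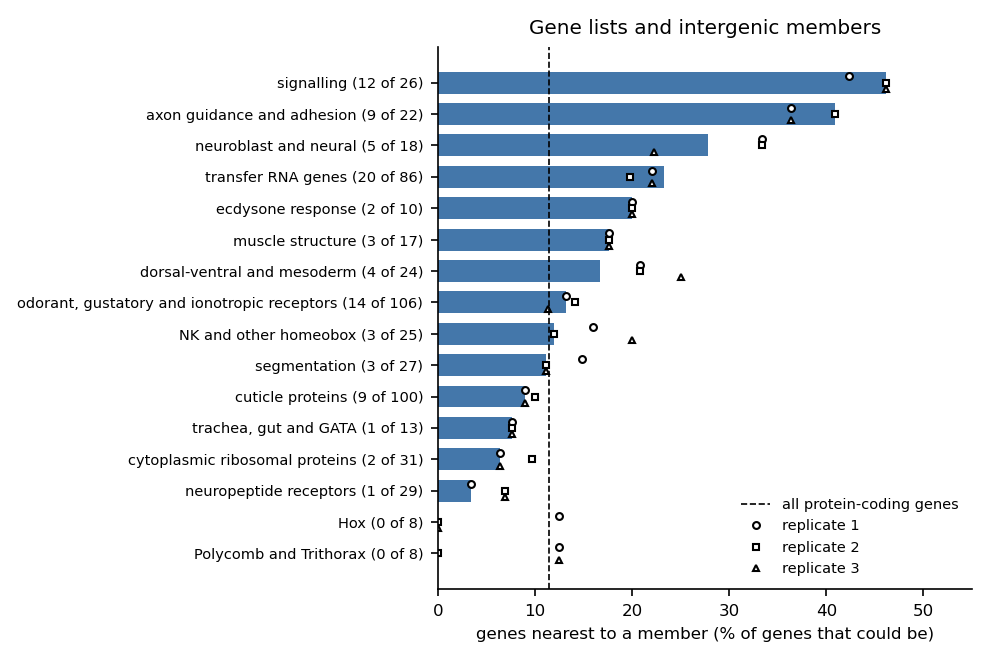
Share of the genes of each list that are nearest to a near-gene intergenic peak, in the IDR list (bars) and in the 3 replicates (points), with the share of all protein-coding genes, 11.4%, as a broken line. Signalling genes (12 of 26) and axon guidance and adhesion genes (9 of 22) lie farthest to the right. The lists were chosen with earlier results of these data known.

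The summits sat in a narrow dip of GC content. Within 50 bp of near-gene intergenic summits 31.7% of bases were G or C (32.2% ± 0.633 in the replicates), against 40.7% in 158412 windows of the same size that tile the sequence meeting the rule, a difference within replicates of -8.46 ± 0.633 percentage points (exact sign-flip permutation p = 0.25, n = 3). GC content was 35.3% at 50 to 100 bp, 40.6% at 100 to 150 bp, 44.2% at 200 to 300 bp and 41.2% at 500 to 1000 bp from the summit. The dip was thus flanked on both sides by sequence richer in G and C than the surroundings. Of the peaks, 82.4% had a window below the mean of the tiled windows. Strong and weak peaks had about the same dip, with 32.2%, 31.0% and 32.0% in the strongest, middle and weakest group.

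The differences to other classes of peaks were smaller, and that to promoters went with peak strength. The near-gene intergenic windows had less G and C than promoter windows, by -3.19 ± 0.747 percentage points (exact sign-flip permutation p = 0.25, n = 3). Among peaks above the median signal this difference was -0.533, and among the 5000 strongest rows -0.355 (exact p = 0.5). Near-gene intergenic windows differed from intergenic windows beyond 5000 bp by 0.679 ± 0.433 and from intron windows by -0.368 ± 0.132 percentage points. The sign of the difference to introns turned among peaks above the median signal (0.906) and with only protein-coding genes counted (0.0965), and that to far intergenic windows turned with windows reaching 100 bp (-0.0956).

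**Figure D4:**
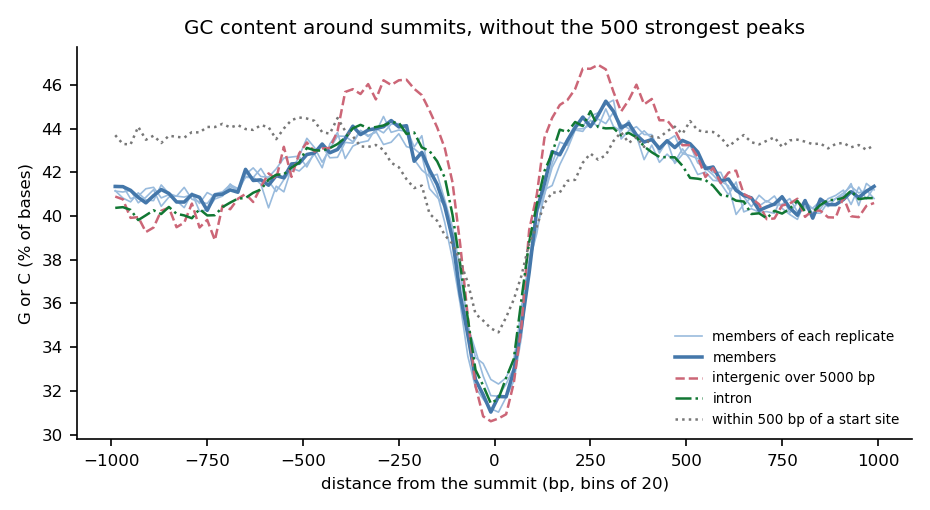
Share of bases that are G or C by distance from the summit, in bins of 20 bp, for near-gene intergenic peaks (thick line, with the 3 replicates as thin lines) and the other classes. All classes dip at the summit, the near-gene intergenic peaks to 31.7% within 50 bp and promoter peaks to 35.1%.

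Frequent words of 6 bases were poor in G and C. Of 2080 words, each joined with its reverse complement, 138 (6.63%) were at least 1.5 times as frequent in near-gene intergenic windows as in the tiled windows in the IDR list and in all 3 replicates, and 103 of them had at most 1 G or C. At most 1/1.5 times as frequent were 608 (29.2%), of which 499 had 4 or more G or C. Of all 2080 words, 228 had at most 1 G or C and 720 had 4 or more. The word ATATTA was in 25.5% of windows (24.4% ± 0.710 in the replicates), against 10.4% of tiled windows and 21.9% of tiled windows weighted to the same GC content. Among the words with 1 G or C, ATCTTA and TAAGTA were also above the tiled windows of the same GC content. ATCTTA was in 10.4% against 7.85%, and both words had 1.32 times their share there. At the other end, CTGGCC was in 1.24% of windows, against 5.28% of tiled windows and 2.40% at the same GC content.

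Of 24 preset motifs, the AT-rich ones were frequent, with shares much closer to those of tiled windows of the same GC content than to those of all tiled windows. TATAAA was in 344 windows (25.2%, 22.9 to 27.6; 25.4% ± 0.788 in the replicates), against 13.0% of tiled windows and 25.3% of tiled windows weighted to the same GC content. The share was 27.4% in far intergenic, 25.9% in intron and 22.3% in promoter windows. TAATTA was in 12.8%, against 8.07% of tiled windows and 13.0% at the same GC content. GTATTT was in 14.2% against 9.53% and 14.5%, and the GATA factor word AGATAA in 7.68% against 5.65% and 8.17%. For these 4 words the excess over all tiled windows was larger than the replicate SD. At the same GC content, an alternative chosen after the data were seen, all 4 were slightly below the tiled windows in the IDR list. In the replicates the difference there was 0.827 ± 0.461 percentage points for TATAAA and 0.274 ± 0.270 for AGATAA, above 0 in 3 of 3 replicates (exact sign-flip permutation p = 0.25 for both). It was 0.252 ± 0.875 for GTATTT (exact p = 0.75) and -0.804 ± 0.603 for TAATTA (exact p = 0.25). TATATA was in 13.8% of windows, against 6.47% of tiled windows and 13.2% at the same GC content (0.665 ± 0.454 percentage points above it in the replicates, exact p = 0.25).

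GGTCACAC and TATCGATA, words of housekeeping promoters, were rarer than in promoter windows. For the core promoter word GTATTT, in 14.2% of windows, the difference to promoter windows was -1.10 ± 0.919 percentage points in the replicates. GGTCACAC, bound by the promoter factor M1BP, was in 2 windows (0.146%), against 2.48% of promoter windows, and the mean difference in the replicates was -2.12 ± 0.178 percentage points. TATCGATA, bound by DREF, was in 8 (0.585%), against 2.45% of promoter windows (difference -2.18 ± 0.600), although it was above the 0.193% of tiled windows. GCCATT, a word of the Polycomb recruiter Pho, was in 4.54% of windows, against 8.51% of tiled windows and 5.99% at the same GC content. The early embryonic factor Zelda's word CAGGTA was in 2.49%, against 1.99% and 1.66% at the same GC content.

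The CTCF core AGNTGGCGC had the largest ratio to the tiled windows of the 24 preset motifs and the 2 added later. It was chosen after the strongest sequences were read, as 1 of 26 words tried by hand beside a screen of all 2080 words of 6 bases for those more frequent in the strongest peaks, so no test is given. It lay within 50 bp of 27 near-gene intergenic summits (1.98%, 1.31 to 2.86) and of 23, 24 and 28 in replicates 1, 2 and 3 (1.87% ± 0.246). The share was 0.267% in tiled windows, 0.135% in tiled windows of the same GC content, and 0.219% in windows 400 bp to either side of the same summits. Other classes had less of it, with 0.801% of far intergenic, 0.645% of intron and 1.07% of promoter windows, as did the 500 strongest peaks, with 2 (0.400%). It was in 13 of the strongest 455 peaks, 10 of the middle 455 and 4 of the weakest 457. Because the word was picked from the strongest of these peaks, this order and the contrast with other classes are description only.

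**Figure D5:**
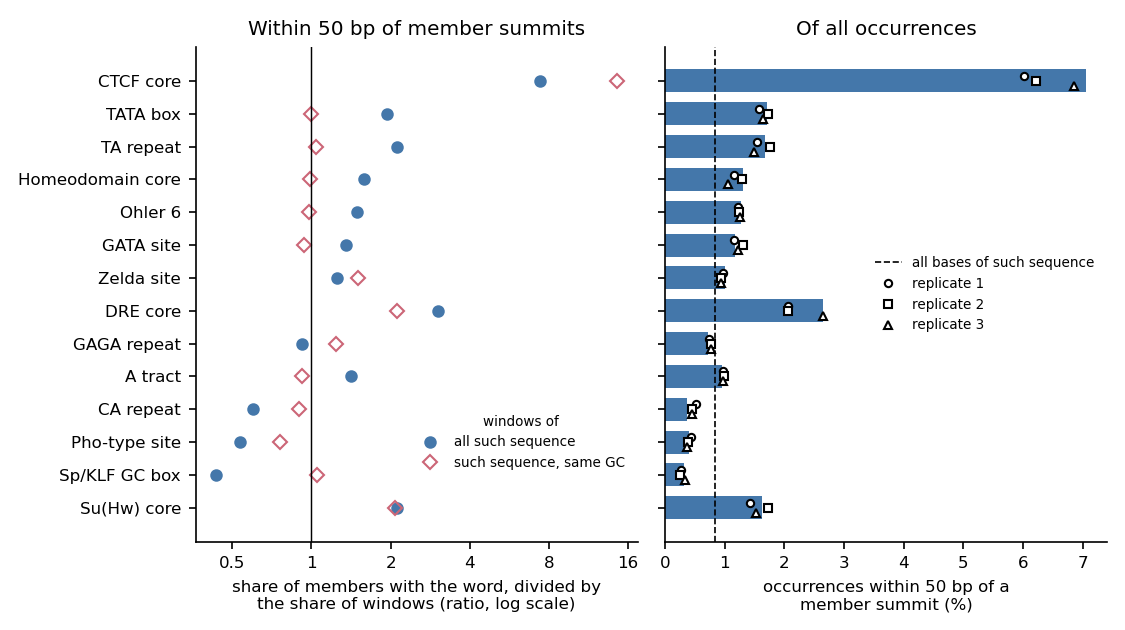
Left, share of near-gene intergenic windows with each word divided by its share in tiled windows (filled) and in tiled windows of the same GC content (open), on a log scale; right, share of all occurrences of each word in sequence meeting the rule that lie within 50 bp of such a summit, with the 3 replicates as points and the share of all bases, 0.831%, as a broken line. The CTCF core lies farthest to the right in both panels, at 14.6 for the same GC content on the left and at 7.05% on the right.

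Read from the genome's side, sequence that meets the rule holds 482 CTCF cores, and 34 of them (7.05%; 6.36% ± 0.432 in the replicates) lay within 50 bp of a near-gene intergenic summit, against 0.831% of all bases of that sequence. The next highest were the DREF word at 2.65% (9 of 339), the TATA box word at 1.71%, TATATA at 1.67% and the Su(Hw) core GCATACTT at 1.63% (16 of 982). Most cores therefore had no such summit. Among all 1367 near-gene intergenic peaks, 956 had a summit in all 3 replicates, and 414 lay in divergent, 697 in tandem and 255 in convergent gaps. Of the 27 peaks with the core, 22 had a summit in all 3 replicates, and 10 lay in divergent gaps, 14 in tandem gaps and 3 in convergent gaps. Their split by gap type was not tested against that of all peaks. Besides the genes shown above they lay nearest to wgn, a TNF receptor gene, Sox21a, in the gap between it and Sox21b, Men, the malic enzyme gene, Fs, which shares its gap with the integrin gene scb, and CHES-1-like. A match is a description of letters, and binding of CTCF at these positions was not tested.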

How the data were processed

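Peaks of 3 biological replicates of CG11504-GFP embryos were analysed from the authors' deposited lists in dm6 coordinates: 1 list per replicate, 1 from the pooled replicates and the IDR list, which was derived from them, per the text files deposited beside them. All share 1 control. The aligner, the peak caller and the read depth were not given in the sources used here, so no interval based on reads is given. The signal value of each peak, on an unstated scale, is the authors' deposited value and was used only to rank peaks within a list. The −log10 q-value that the authors deposited, capped in most peaks, played no part in ranking. The summit offset from the peak start is the authors' deposited value in bases, and summits are counted from 1.

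Genes and start sites came from Ensembl release 115, without transposable elements, on the 6 main chromosome arms, and sequence from the NCBI genome of the same assembly. Every base that meets the position rule was enumerated (16362653 bases), and windows tiling it, as long as those reaching 50 bp on either side of a summit, gave the shares that peaks are set beside. The replicates were put through the same rule over their own 10650 strongest peaks, again without the first 500. Summits within 100 bp count as matched. A peak belongs to the gene with the nearest start site. Replicate differences were tested by an exact two-sided sign-flip permutation test. Windows of the same GC content were weighted in bins of 5 bases. A word counted as frequent or rare by a ratio of 1.5 to the tiled windows in the IDR list and all 3 replicates.

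Named genes followed a rule: the 20 strongest peaks, the 6 genes with the most peaks, up to 4 genes per list, 2 peaks on each side of each limit, the 6 most over-represented words found in at least 5% of windows and the 4 most under-represented found in at least 5% of tiled windows. The peaks with the CTCF core, and the genes named for them, were chosen after their values were seen. Of the symbols in the 16 gene lists, 11 were not matched. The genes of 1 list with a peak, and 1 of the strongest windows, are not reported here. The peaks, gene lists and motifs were chosen with earlier results of these data known. The alternatives were other distance limits, protein-coding genes only, the 500 strongest rows kept, stronger peaks only, 1 summit per region, other windows and match distances, each replicate left out, windows of the same GC content and summits in transposable elements left out. The last pair was added after seeing the data. Python 3.11.15 was used, together with the numpy (2.4.6), scipy (1.17.1) and matplotlib (3.10.9) packages, and the code was tested on simulated data.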

Additional observations from a re-analysis of the deposited data

How the results depend on the processing

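The number of near-gene intergenic peaks, 1367, became 605 with signal above the IDR median and 556 among the 5000 strongest rows. The upstream share was 63.5% with a lower limit of 1000 bp, 70.4% with an upper limit of 3000 bp, 72.8% with protein-coding genes only, 67.5% with the 500 strongest rows kept and 66.0% above the median signal. The share in divergent gaps was 29.0%, 31.2% and 36.2% under the first 3 of these and 31.1% among the 5000 strongest rows. The matching shares of bases under those first 3 are not given here, so whether upstream or divergent positions were favoured there was not tested. The share with a promoter peak at the nearest gene was 38.9% with protein-coding genes only, 35.2% above the median signal and 35.6% among the 5000 strongest rows. The share of protein-coding genes with a peak was 11.8% and 9.34% with the limits of 1000 and 3000 bp, 13.4% with protein-coding genes only, 11.8% with the 500 strongest rows kept, 11.1% with 1 summit per region, and 5.70% and 5.26% above the median signal and among the 5000 strongest rows, where fewer peaks are counted. Peaks with a protein-coding nearest gene were 100% by construction with protein-coding genes only, 64.3% above the median signal and 63.7% among the 5000 strongest rows. The ratio of peak density at 500 to 1000 bp to that at 2000 to 5000 bp was 1.34 with protein-coding genes only, 1.55 with the 500 strongest rows kept, 1.63 above the median signal, 1.41 with 1 summit per region and 1.73 among the 5000 strongest rows.

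The share found in all replicates was 57.6% with a match of 50 bp, 73.7% with 200 bp and 92.0% with all 30000 peaks of each replicate, and 75.3% to 78.0% with 1 replicate left out, where fewer have to match. The difference in GC content to far intergenic windows was -0.0956 with windows reaching 100 bp. The difference to introns was 0.0965 with protein-coding genes only, 0.906 above the median signal and 0.943 among the 5000 strongest rows. The difference to promoters was -0.533 above the median signal and -0.355 among the 5000 strongest rows (exact permutation p = 0.5), against -3.38 in the IDR list. It and the difference to the tiled windows kept their sign in every alternative run.

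Motif differences in percentage points in the IDR list changed sign against tiled windows of the same GC content for the TATA box (-0.164), the homeodomain core (-0.181), Ohler 6 (-0.317), GATA (-0.485), GAGA (0.581), the A tract (-2.40), the E-box CAGCTG (0.0748), Grainyhead (0.0164), Hox-Exd (-0.167), the GCN repeat (0.382) and the GC box (0.0761). The replicate means there did not change sign for the TATA box (0.827), GATA (0.274), Ohler 6 (0.252), Grainyhead (-0.00688) and the GC box (-0.245). With windows of 100 bp they did so for GAGA (2.21), M1BP (-0.108), the Twist-type E-box (0.549), AP-1 (-0.0353), Ets (-0.0300) and Hox-Exd (-0.0916), and with 25 bp for the Twist-type E-box (0.248). In a single replicate's list the sign changed for GAGA (0.129), the Twist-type E-box (0.245 and 0.366), STAT (0.419 and 0.00591), Ets (-0.0113 and -0.00271), Hox-Exd (-0.0748) and the GCN repeat (0.00776 and 0.0313). With 1 replicate left out it changed for the Twist-type E-box (0.103 to 0.305), STAT (-0.226 to 0.213), Ets (-0.00701 to 0.0322) and the GCN repeat (-0.111 to 0.0195). The cause was not tested. The CTCF core kept its sign in all its alternatives, but it was picked from these same peaks, so this is description only. Differences between classes of peaks were taken within each replicate, so the classes were paired by replicate. Samples could not be paired between groups, because they form 1 group. The unknown read depth and the single shared control limit every value.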
